A study of Homo sapiens with 9 samples.

Results

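The 9 libraries of the series came from 3 lines of human lung adenocarcinoma cells, with 1 library per line for each of the letters A, B and C. The 3 A libraries and the 3 B libraries (6 of the 9 libraries) were compared here within each line, to describe which genes and functions differed by letter alike in the parental, PR1 and PR2 cells. The parental line is LC-2/ad, an established line that carries a CCDC6-RET fusion, and no drug is stated for it. PR1 and PR2 are ponatinib-resistant derivatives of it that were cultured in 200 nM ponatinib, a kinase inhibitor whose targets include RET. All 3 lines therefore share the fusion and the same origin, and the labels do not say whether a derivative is 1 clone. The labels also do not say what the letters stand for, so culture, RNA extraction and library preparation cannot be told apart, and a p-value here reflects only how these libraries vary, which may be technical. Column-purified RNA was made into TruSeq RNA libraries for sequencing. Below, values given in threes are in the order parental, PR1, PR2.

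Cells that divide pass through S phase, in which DNA is copied, and then through mitosis. The mRNAs of replication enzymes are made under E2F transcription factors as cells commit to S phase, and those of mitotic kinases and spindle proteins are made later, largely through CHR and CCAAT promoter elements. Growing cells also make ribosomes in the nucleolus, in part under MYC, which binds the E-box. Chaperones of the heat shock family fold proteins and the proteasome degrades them. Heat shock factors act through paired GAA and TTC blocks in chaperone promoters.

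4 promoters of genes that were higher in the A libraries are printed, 1 each for the DNA replication, mitosis, heat shock and MYC and nucleolar groups described below. Each is the 250 bases before the transcription start, read 5′ to 3′ on the gene's strand, from RefSeq on GRCh38.p14. Each is the called member with the largest difference among those whose window held the element searched. Letters that match the motifs are in capitals. The motifs, searched on both strands, were TTTCGCGC, TTTGGCGC and TTTCCCGC (E2F-type), TTTGAA and TTCGAA (CHR-type), CCAAT, GAANNTTC and TTCNNGAA (heat shock element) and CACGTG (E-box). TYMS, thymidylate synthase, makes the DNA precursor dTMP (chr18:657403-657652, plus strand), and its window holds the E2F-type match and no CCAAT. CDC20, an activator of the anaphase-promoting complex (chr1:43358731-43358980, plus strand), has CHR-type and CCAAT matches. HSPA8, the constitutive chaperone HSC70 (chr11:123062137-123062386, minus strand), has overlapping heat shock element matches at either end of the window, with CCAAT matches on the other strand between them. UTP20, a processing factor of the small ribosomal subunit (chr12:101279855-101280104, plus strand), has an E-box close to the start.
TYMS: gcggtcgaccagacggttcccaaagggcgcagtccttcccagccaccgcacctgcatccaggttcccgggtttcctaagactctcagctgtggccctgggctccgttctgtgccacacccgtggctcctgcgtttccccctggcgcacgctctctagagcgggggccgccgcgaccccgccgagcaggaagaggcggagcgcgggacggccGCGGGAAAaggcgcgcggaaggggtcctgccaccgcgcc
CDC20: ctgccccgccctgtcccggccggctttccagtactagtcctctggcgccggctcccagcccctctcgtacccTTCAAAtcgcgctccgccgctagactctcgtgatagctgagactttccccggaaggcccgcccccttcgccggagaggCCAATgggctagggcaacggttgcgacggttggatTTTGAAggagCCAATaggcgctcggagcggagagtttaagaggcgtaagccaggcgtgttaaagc
HSPA8: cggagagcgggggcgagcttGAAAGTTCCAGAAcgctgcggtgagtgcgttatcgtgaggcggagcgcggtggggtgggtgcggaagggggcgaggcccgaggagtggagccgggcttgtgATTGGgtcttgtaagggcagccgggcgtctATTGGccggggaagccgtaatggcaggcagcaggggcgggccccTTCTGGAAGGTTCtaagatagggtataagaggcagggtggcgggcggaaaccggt
UTP20: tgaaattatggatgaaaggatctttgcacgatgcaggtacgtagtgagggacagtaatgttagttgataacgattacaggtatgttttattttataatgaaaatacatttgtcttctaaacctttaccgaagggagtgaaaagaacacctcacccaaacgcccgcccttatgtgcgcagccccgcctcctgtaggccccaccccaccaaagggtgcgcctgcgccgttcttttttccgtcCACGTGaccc

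The elements were unevenly spread over the gene groups. In windows from 250 bases before to 50 bases after the start, an E2F-type match was present in 60% of 35 promoters of the DNA replication list, in 4.80% of 9175 promoters of tested genes and in 2.79% of all 27305 promoters. CHR-type matches were present in 79.2% of 24 mitosis promoters, 11.1% of those of tested genes and 16.6% of all. CCAAT was in 87.5% of the mitosis promoters, against 36.8% and 35.7%. A heat shock element was in 30.8% of 13 chaperone promoters, against 10.05% and 13.7%. The E-box was in 33.3% of 24 promoters of the MYC and nucleolar list, against 10.3% and 7.44%. Each element was also counted in the other lists named here and in 25 proteasome promoters. There the shares were 0% to 12.5% (E2F-type), 5.71% to 20.8% (CHR-type), 4% to 20.8% (heat shock element) and 4% to 12.5% (E-box). CCAAT was in 23.1% to 56% of them, with 56% in the proteasome list and 51.4% in the DNA replication list. Over the genes that were higher in A as a whole (730 promoters), the CHR-type share was 19.6% and the E2F-type share 9.18%, and over those lower in A (323 promoters) the shares were 7.12% and 3.41%. The other elements were at 10.8% (heat shock element) and 12.2% (E-box) over the genes higher in A and at 10.5% and 8.67% over those lower in A, and CCAAT was at 42.7% and 30.03%. A match describes the letters of the window and does not show that a factor was bound.

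The labelled cell type was checked first. Lung lineage and epithelial genes were expressed in all 9 libraries. The summed FPKM of 25 lung lineage markers was 3349 to 4242 in A and 4241 to 4723 in B. This sum was led by the keratin KRT7 (at most 3548 FPKM), and 19 of the markers passed the expression limit for testing. The sum of 21 epithelial markers, led by KRT8 (at most 2622 FPKM), was 5397 to 6557 in A and 6036 to 6800 in B. Markers of other cell types were low. The fibroblast list (12 genes, DPT at 0 in every library) summed to 11.3 to 16.5 FPKM in A and 17.2 to 17.8 FPKM in B. The endothelial list (9 genes, led by EGFL7 with at most 23.6 FPKM) summed to 12.5 to 15.1 FPKM in A and 20.1 to 27.9 FPKM in B, so both lists were lower in every A library than in any B library. The blood cell list (11 genes) summed to 1.03 to 3.78 FPKM in A and 1.30 to 9.42 FPKM in B. The neuroendocrine list (14 genes, with CHGA, INSM1 and GRP at 0 in every library) summed to 4.99 to 22.04 FPKM in A and 4.36 to 14.1 FPKM in B. Depth moved with the letter: relative to parental A, single-fragment steps of low genes put the A libraries at 0.918 to 1 and the B libraries at 0.755 to 0.809. The share of all FPKM held by the 10 highest rows was 7.54% to 9.39% in A and 9.31% to 11.2% in B. The part of depth, and of the cells behind these markers, in the differences below was not tested.

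Between A and B, 1389 of 12011 rows of the table (11.6%) were called at an adjusted p under 0.05 in limma on log2(FPKM + 1) with line as a block. Of these, 920 (7.66%) were higher in A and 469 (3.90%) lower. A difference of 2-fold or more on that scale was seen in 177 of them (1.47%), 76 higher and 101 lower in A. The smallest adjusted p in limma was 0.0123, and 3805 rows had an unadjusted p under 0.05, so most calls lay close to the threshold. Leaving out the B library of any 1 line left 1 call (parental B), 0 calls (PR1 B, with 2224 rows at an unadjusted p under 0.05) or 1 call (PR2 B). Without PR1 A 386 rows were called, without PR2 A 95 and without parental A 1753. Each gene call below shares this limit: of the 81 called genes that the naming rule picked, 0 were called when any 1 B library was left out. When every library was set to the same median, 405 of 1000 called rows were higher in A, and under quantile normalization 519 of 1031, so the excess of genes higher in A depends on the scaling of the deposited values.

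The direction was shared among the lines for many rows that were not called. A minus B had the same sign in all 3 lines in 6336 of the 12011 rows (52.8%) and in all 1389 called rows, in which the test itself favours equal signs. The 3 A values and the 3 B values did not overlap in 2282 rows (19.0%), and in 881 of the called rows. Across rows, the A minus B differences correlated at r = 0.44 between parental and PR1 cells, 0.42 between parental and PR2 cells and 0.59 between PR1 and PR2 cells (Pearson, 12011 rows, which are not independent replicates and share the depth difference of their libraries). Line accounted for a median of 53.9% of the sum of squares of a row and letter for 21.7%. Letter accounted for more than line in 3805 of all rows tested (31.7%) and in 900 of the called rows (64.8%), which were selected for a letter difference.

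Genes were grouped by function in 43 lists. Mitosis, DNA replication, MYC and nucleolar, heat shock, proteasome and glycolysis genes had the highest shares of called members among the lists with at least 10 tested members, and every called member of these 6 lists was higher in A. The plot of list medians by line sets them against the other lists.

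**Figure D1:**
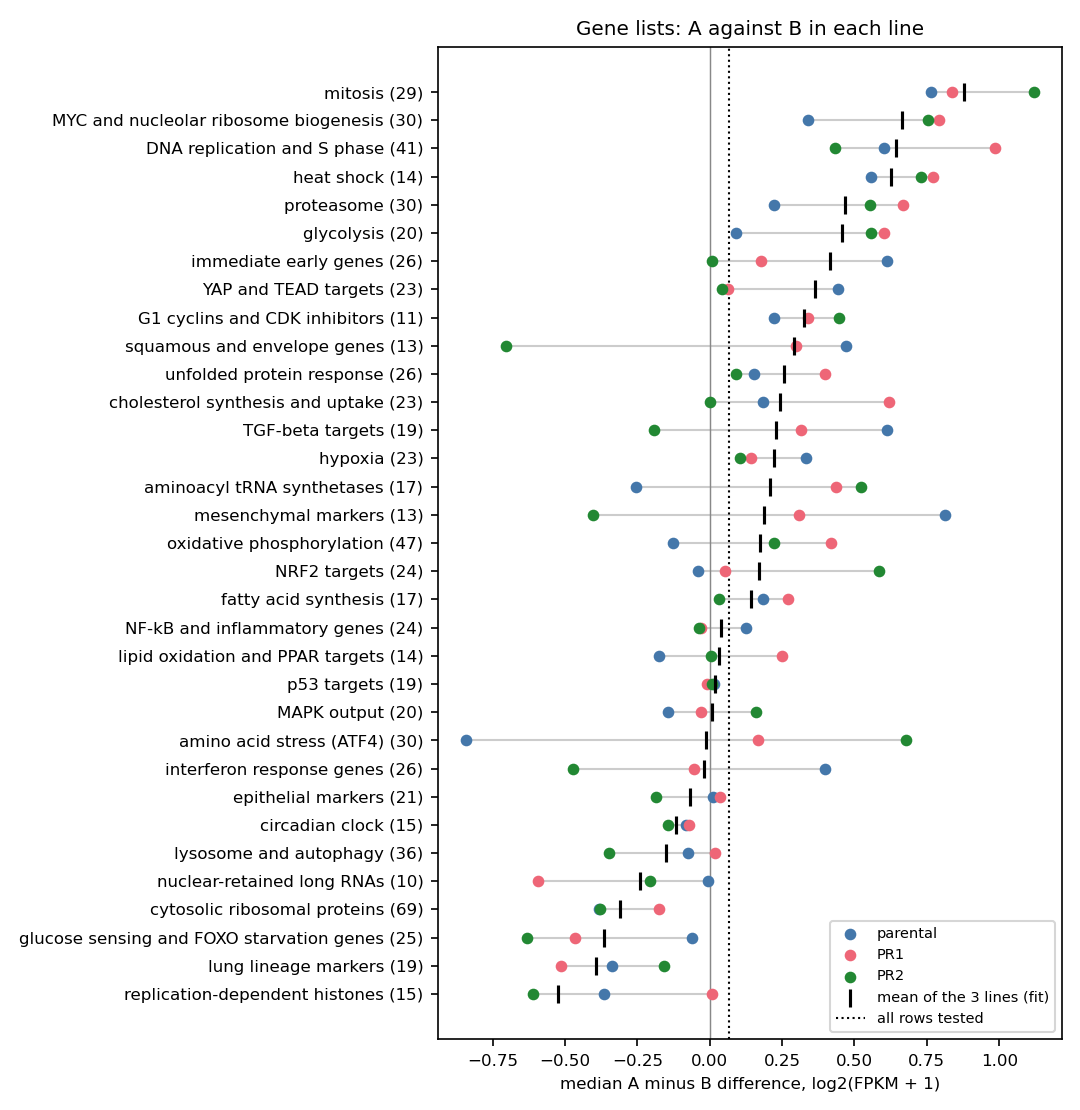
Median A minus B difference in log2(FPKM + 1) over the tested members of each list (number in brackets) with at least 10 tested members, with 1 point per line, a bar for the fitted mean of the 3 lines and a dotted line at the median of all rows tested (0.07). The mitosis list has the highest fitted median (0.88), and the points of the amino acid stress list lie on both sides of 0.

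Mitotic genes were higher in the A library of every line. Of 29 tested members, 18 (62.1%, against 7.66% of all rows) were called higher and 0 lower, and all 29 had a positive difference. In 26 the A and B values did not overlap, as in 19.0% of all rows. The list median was 0.88 (0.77, 0.84 and 1.12 by line) against 0.07 over all rows tested. In bulk samples, fewer cells of a type and less RNA per cell cannot be told apart. CDC20, whose promoter is printed above, had 115, 194 and 178 FPKM in A and 62.5, 64.0 and 60.8 FPKM in B, a difference of 1.33 ± 0.26 (SE, adjusted p = 0.0254, limma). All its A values lay above all its B values, and the A value of PR1 was the highest. PLK1, a kinase of spindle assembly, had 87.2, 104 and 125 FPKM in A and 51.03, 46.1 and 45.9 in B (1.12 ± 0.23, adjusted p = 0.0279, limma). CDCA8, a subunit of the chromosomal passenger complex, had 22.4, 38.1 and 45.8 FPKM in A and 12.9, 14.7 and 18.4 in B, a difference of 1.11 (adjusted p = 0.0224, limma). The ranges of both genes were again separate, and the B values of PLK1 lay close together over the lines. MKI67, the gene of the proliferation antigen Ki-67, had 33.0, 27.0 and 32.0 FPKM in A and 12.9, 15.7 and 10.2 in B, with a difference of 1.20 ± 0.31 (adjusted p = 0.0471, limma). KIF23, a motor protein of the central spindle, had 28.2, 28.1 and 44.8 FPKM in A and 14.4, 14.1 and 18.0 in B (1.05, adjusted p = 0.0258, limma). Both were high in every A library. The kinases CDK1 (0.89), AURKA (0.95), AURKB (0.86) and BUB1 (0.94) and the cyclins CCNB1 (0.85) and CCNB2 (0.71) were among the other called members. TOP2A, the topoisomerase that untangles chromosomes, had 93.9, 61.3 and 141 FPKM in A and 43.7, 35.9 and 59.1 in B and was not called (adjusted p = 0.0530, limma). The number of called members was 9 under quantile normalization, 10 with equal library medians and 9 after GC content and length trends were removed.

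Genes of DNA replication and S phase were likewise higher in A. Of 41 tested members, 21 (51.2%) were called higher and 0 lower, and all 41 differences were positive. The median was 0.64 (0.60, 0.98 and 0.43 by line). RRM2, the small subunit of ribonucleotide reductase, had 65.6, 72.3 and 79.1 FPKM in A and 27.2, 24.5 and 29.9 in B, the largest difference of the list (1.38 ± 0.23, adjusted p = 0.0224, limma). The levels of the lines were alike within A and within B, and A and B did not overlap. In C the values were 21.8, 53.6 and 39.5 FPKM, of which the parental one was below all B values. CDC6, which loads the replicative helicase, had 28.7, 31.6 and 35.3 FPKM in A and 13.7, 10.3 and 18.1 in B (1.16, adjusted p = 0.0218, limma). TYMS, whose promoter is printed above, had 20.2, 33.4 and 54.7 FPKM in A and 10.3, 11.7 and 26.7 in B (1.12 ± 0.24, adjusted p = 0.0289, limma). In TYMS the letters overlapped across lines, since PR2 B lay above parental A, although A was higher within each line. CDC45, a subunit of the active helicase, had 22.00, 25.6 and 24.4 FPKM in A and 13.5, 8.04 and 11.8 in B (1.07, adjusted p = 0.0224, limma). Of the helicase subunits MCM2 to MCM7, MCM3 (0.67) and MCM4 (0.94) were called and MCM2, MCM5, MCM6 and MCM7 were not (0.60, 0.55, 0.64 and 0.33). POLA1 and POLA2, subunits of the priming polymerase, were called (0.74 and 0.92). The sliding clamp PCNA had 137, 164 and 98.3 FPKM in A and 88.5, 89.5 and 86.2 in B and was not called (adjusted p = 0.0961, limma). Called members numbered 13 under quantile normalization and 11 with equal library medians.

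Replication-dependent histone genes, whose mRNAs are made in S phase, did not share this direction. Of 15 tested rows, 4 (26.7%, against 3.90% of all rows) were called lower in A and 0 higher, with a median of -0.52 (-0.36, 0.01 and -0.61 by line). HIST3H2A, an H2A gene, had 5.10, 8.37 and 2.195 FPKM in A and 11.3, 13.7 and 24.8 in B (-1.56 ± 0.41, adjusted p = 0.0476, limma). HIST1H2BG had 1.54, 1.46 and 1.77 FPKM in A and 3.66, 2.78 and 3.51 in B (-0.73, adjusted p = 0.0257, limma). Both were lower in every A library than in any B library. Most of these rows had a few FPKM or less, and most mRNAs of this class lack a poly(A) tail. SLBP, which binds the stem-loop of these mRNAs, was called higher in A (95.0, 108 and 69.4 FPKM in A and 63.8, 73.0 and 56.2 in B, 0.47).

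The median of the nucleolar and MYC-linked genes was higher in A in each line, and was lowest in parental cells. Of 30 tested members, 13 (43.3%, against 7.66% of all rows) were called higher and 0 lower. All 30 mean differences were positive, with a median of 0.67 (0.34, 0.79 and 0.75 by line). In 25 members the sign was the same in all 3 lines. MYC itself was not called, with 228, 214 and 173 FPKM in A and 181, 185 and 172 in B (adjusted p = 0.355, limma). TFRC, the transferrin receptor for iron uptake, had 104, 86.5 and 109 FPKM in A and 41.0, 31.8 and 36.9 in B (1.43 ± 0.18, adjusted p = 0.0218, limma). Each A value of TFRC was above every B value. ODC1, which starts polyamine synthesis, had 128, 155 and 239.6 FPKM in A and 75.5, 55.6 and 88.0 in B (1.22, adjusted p = 0.0279, limma). DDX21, a nucleolar RNA helicase, had 39.2, 43.6 and 52.2 FPKM in A and 21.8, 21.99 and 24.3 in B (0.95, adjusted p = 0.0262, limma). UTP20, whose promoter is printed above, had 3.83, 5.50 and 6.10 FPKM in A and 1.64, 2.46 and 2.72 in B (0.91 ± 0.13, adjusted p = 0.0224, limma). These 3 genes were highest in PR2 A, and in each of them the A and B ranges were separate. NCL, nucleolin, had 426, 501 and 419 FPKM in A and 263, 273 and 226 in B and was called (0.82). Called members numbered 7 under quantile normalization, 6 with equal library medians and 10 after GC content and length trends were removed.

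The mRNAs of ribosomal proteins, which are exported from the nucleus and translated, were described separately from the genes that assemble ribosomes. Of 69 tested rows, 0 were called in either direction in limma, against 11.6% of all rows. An unadjusted p under 0.05 was seen in 18 (limma), 17 of them lower in A. In 67 rows the difference was negative, and the median was -0.31 (-0.38, -0.17 and -0.38 by line). RPL3, a protein of the large subunit, had 1823, 2302 and 1423 FPKM in A and 3118, 2850.3 and 2445 in B (-0.62, adjusted p = 0.0666, limma). RPL31 had differences of -0.80, -0.46 and -0.67 by line (adjusted p = 0.0870, limma). The negative sign of the median held under quantile normalization (-0.11) and with equal library medians (-0.40). After GC content and length trends were removed 4 of these rows were called.

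Cytosolic chaperones were higher in A. Of 14 tested members of the heat shock list, 9 (64.3%, against 7.66% of all rows) were called higher and 0 lower. The list median was 0.63 (0.56, 0.77 and 0.73 by line). HSPA8, whose promoter is printed above, had 1322, 1083 and 1206 FPKM in A and 770.2, 479.8 and 663 in B (0.94 ± 0.17, adjusted p = 0.0224, limma). Its A and B values did not overlap, and PR1 had the lowest value within A and within B. HSP90AA1, the inducible cytosolic HSP90, had 895, 576 and 725 FPKM in A and 418, 303 and 433 in B (0.92, adjusted p = 0.0236, limma). HSPH1, a nucleotide exchange factor of HSP70, had 38.6, 23.4 and 28.9 FPKM in A and 17.5, 12.4 and 14.8 in B (0.96, adjusted p = 0.0224, limma). In both genes the lowest A value exceeded the highest B value. HSPD1, the mitochondrial HSP60, was called too, with 368, 459 and 418 FPKM in A and 258, 237 and 197 in B (0.85). CHORDC1, a co-chaperone of HSP90, had 65.6, 48.8 and 60.5 FPKM in A and 31.7, 29.2 and 33.9 in B (0.86, adjusted p = 0.0254, limma). Of the 5 members that were not called, DNAJB1 had 79.0, 67.2 and 75.9 FPKM in A and 75.7, 57.1 and 63.7 in B, BAG3 had 59.5, 48.6 and 38.4 in A and 54.2, 48.8 and 47.1 in B, and HSPB1 had 1250.0, 545 and 839.7 in A and 1445, 803 and 962 in B. The values of these 3 genes overlapped between letters, and STIP1 (0.54) and FKBP4 (0.58) were the others. In the endoplasmic reticulum, 1 of 26 members of the unfolded protein response list was called higher (DNAJB11, 0.57) and 0 lower. This share was 3.85%, against 7.66% of all rows, and the list median was 0.26.

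Proteasome subunits were higher in A by smaller amounts. Of 30 tested members, 13 (43.3%) were called higher and 0 lower, all 30 differences were positive, and the median was 0.47 (0.22, 0.67 and 0.55 by line). Of the 13 called subunits, 6 belong to the non-ATPase part of the regulatory particle, which includes PSMD1 (0.82), PSMD12 (0.80), PSMD11 (0.79) and PSMD14 (0.74), the deubiquitinase of the particle. PSMD12 had 79.5, 40.8 and 69.7 FPKM in A and 49.0, 23.9 and 35.2 in B (adjusted p = 0.0224, limma). PSMD11 had 43.4, 29.5 and 80.1 FPKM in A and 26.2, 15.1 and 47.4 in B (adjusted p = 0.0224, limma). Their letters overlapped across lines, and A was above B within each line. The catalytic subunits PSMB5 (0.32), PSMB6 (0.54) and PSMB7 (0.30) were not called. Called members numbered 8 with equal library medians.

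The glycolysis list was higher in A in PR1 and PR2, while its parental median equalled that of all rows in that line (0.09). Of 20 tested members, 6 (30%, against 7.66% of all rows) were called higher and 0 lower. The list median was 0.46 (0.09, 0.60 and 0.56 by line, against 0.09, 0.06 and 0.05 over all rows). In 14 members the sign was the same in all 3 lines. The called members, like all called rows, had 1 sign in all lines, as in LDHA (1.03, 1.29 and 1.06 by line). LDHA, which turns pyruvate into lactate, had 1012, 1006 and 687 FPKM in A and 497, 409 and 329 in B (1.13 ± 0.15, adjusted p = 0.0224, limma). All A values of LDHA lay above all its B values. PKM, pyruvate kinase, had 969.8, 1181 and 871 FPKM in A and 652, 579.5 and 631 in B (0.69, adjusted p = 0.0340, limma). GPI, phosphoglucose isomerase, had 152, 139 and 113 FPKM in A and 112, 65.9 and 68.6 in B (0.74, adjusted p = 0.0263, limma). Neither gene overlapped between letters, although the parental B value of GPI was only just under its PR2 A value. The glucose transporter SLC2A1 was not called (0.42, adjusted p = 0.0617, limma), nor was the lactate exporter SLC16A3 (0.01). With equal library medians 2 members were called. Of 23 members of the hypoxia list, 3 were called higher (LOX, P4HA2 and PDK1) and 0 lower, with a median of 0.22. This share of 13.0% was near the 11.6% of all rows called in either direction. Of 47 oxidative phosphorylation subunits, 1 (2.13%, against 7.66% of all rows) was called higher (NDUFS1, 0.49). Of 23 cholesterol genes 0 were called in limma (6 at an unadjusted p under 0.05), against 11.6% of all rows.

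The level of the third library of each line was set beside these lists. Over the 1389 called rows, the C library lay at 34.4% of the way from B to A in the parental line for rows higher in A and at 37.5% for rows lower in A. In PR1 the positions were 59.6% and 61.0%, and in PR2 22.1% and 22.7%. By these positions the C library was nearer to A in PR1 and nearer to B in the other lines. Row by row, C was nearer to A in 40.3%, 61.0% and 14.5% of the called rows. These rows were selected for a difference between A and B, which favours a C value between them. Relative to parental A, the depth of the C libraries was 0.795, 1.01 and 0.825. The part of depth in these positions was not tested. C minus B medians were -0.59, 0.61 and 0.10 for mitosis, -0.17, 0.63 and 0.17 for DNA replication and -0.15, 0.26 and 0.01 for heat shock. They were 0.03, 0.16 and -0.02 for the proteasome and -0.09, 0.22 and 0.05 for glycolysis. For the MYC and nucleolar list they were 0.48, 0.32 and 0.10. In that list the parental C minus B median was above the parental A minus B median (0.34). In the parental line the mitotic list was lower in C than in B. In the same fit, A against C called 0 rows (2447 at an unadjusted p under 0.05, smallest adjusted p 0.0659, limma) and C against B called 0 rows (1888 at an unadjusted p under 0.05, smallest adjusted p 0.247, limma). These contrasts share libraries with A against B. Without parental A, A against C called 712 rows.

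**Figure D2:**
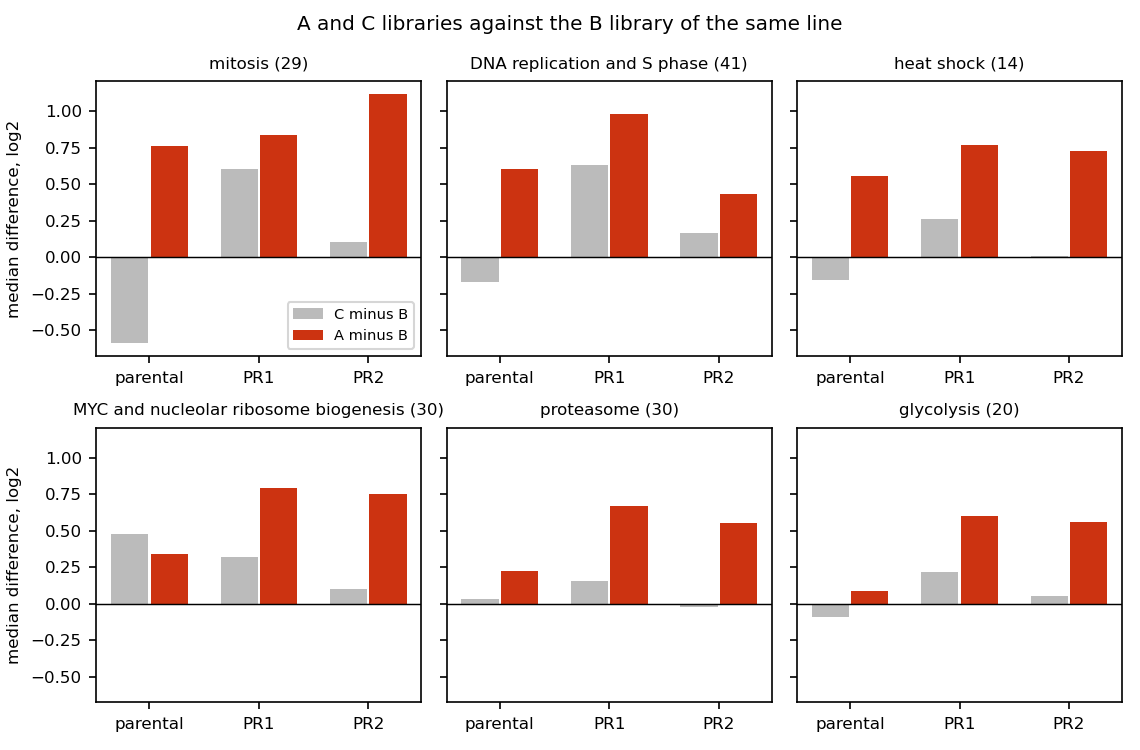
Median difference in log2(FPKM + 1) from the B library of the same line, for the A library (red) and the C library (grey), over the tested members (number in brackets) of 6 lists. All A bars are above 0, and the C bar of the mitosis list is below 0 in the parental line and above 0 in PR1.

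The 12 largest rises, leaving out combined loci and small or non-coding RNA symbols, included genes of growth (RRM2, TFRC, ANLN), secreted proteins (GAL, EREG, FN1, FGFBP1) and the cytoskeleton (TUBB6, FLNC). GAL, the neuropeptide galanin, had 35.1, 41.0 and 54.8 FPKM in A and 13.9, 6.07 and 16.4 in B (1.84 ± 0.40, adjusted p = 0.0301, limma). EREG, the EGF receptor ligand epiregulin, had 30.7, 20.8 and 37.4 FPKM in A, 23.4, 16.3 and 20.2 in C and 8.51, 5.30 and 10.6 in B (1.75 ± 0.14, adjusted p = 0.0123, limma). In EREG each A value was above every B value, the C value lay between them in each line, and its adjusted p was the smallest of all rows. FOSL1, an AP-1 subunit, had 20.9, 99.1 and 85.9 FPKM in A and 7.94, 24.7 and 35.8 in B (1.50 ± 0.21, adjusted p = 0.0224, limma). Its letters overlapped across lines, since the parental A value was below the B values of PR1 and PR2. FN1, the matrix protein fibronectin, had 10.1, 26.3 and 78.7 FPKM in A and 1.77, 8.51 and 41.8 in B (1.47, adjusted p = 0.0224, limma). TUBB6, a beta-tubulin, had 23.0, 11.8 and 42.1 FPKM in A and 6.75, 2.34 and 23.7 in B (1.46, adjusted p = 0.0236, limma). FLNC, the actin crosslinker filamin C, had 2.53, 18.8 and 61.0 FPKM in A and 0.604, 3.16 and 31.6 in B (1.44, adjusted p = 0.0224, limma). In these 3 genes the letters overlapped across lines, PR2 had the highest values, and A was above B within each line. ANLN, the cytokinesis scaffold anillin, had 46.5, 66.4 and 129 FPKM in A and 14.1, 30.4 and 42.9 in B (1.44 ± 0.29, adjusted p = 0.0265, limma). Its letters did not overlap. FGFBP1, a carrier of fibroblast growth factors, had 10.1, 39.8 and 12.6 FPKM in A and 4.47, 13.2 and 3.40 in B (1.39). BRI3BP had 10.5, 12.9 and 8.09 in A and 3.50, 3.58 and 3.12 in B (1.37), and UNC13D, a vesicle priming factor, had 13.1, 28.1 and 45.2 in A and 2.51, 7.22 and 38.6 in B (1.35). In UNC13D the difference was small in PR2 (2.00, 1.82 and 0.22 by line). RRM2 and TFRC, described above, complete the 12.

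**Figure D3:**
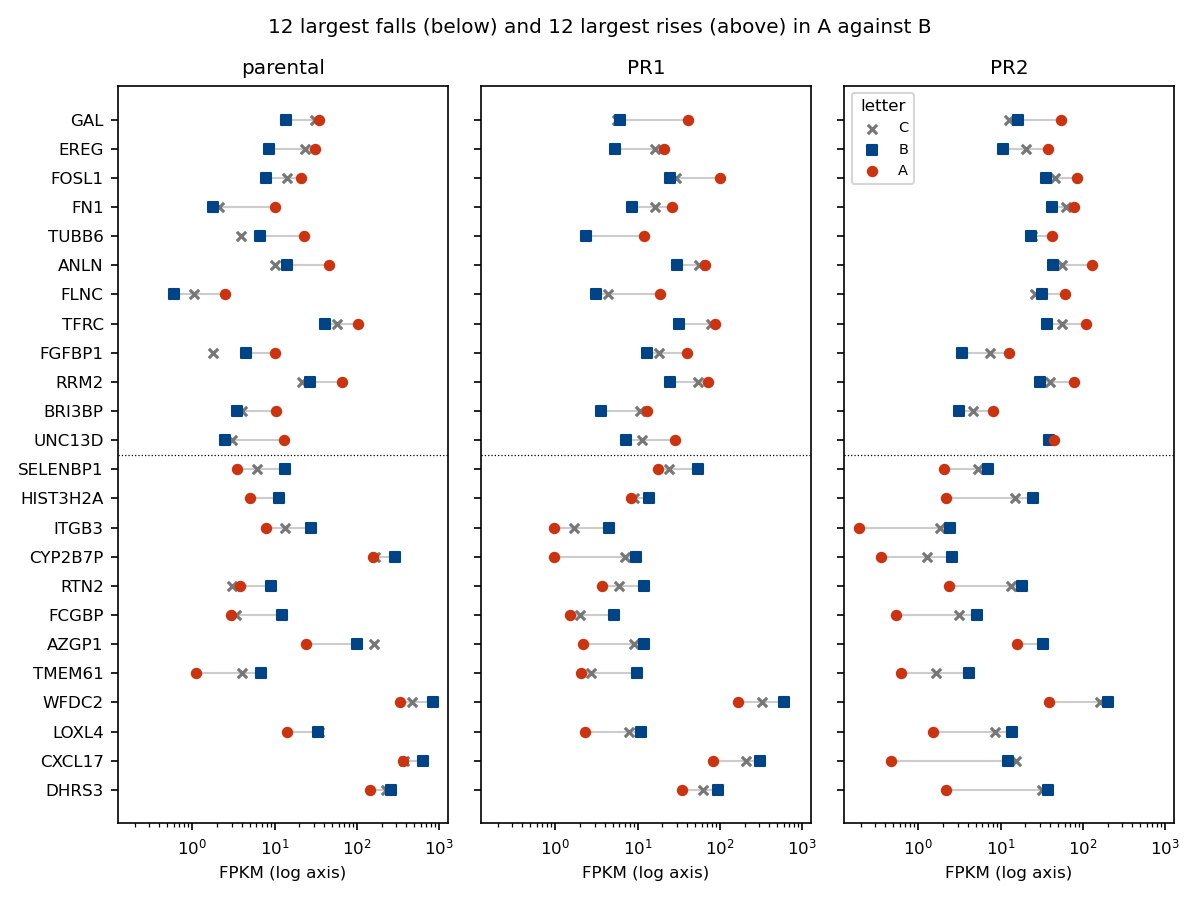
FPKM on a log axis in each line for the 12 genes with the largest rises (above the dotted line) and the 12 with the largest falls (below it) in A against B, with a circle for A, a square for B and a cross for C. Within each line every circle of the upper genes lies to the right of its square and every circle of the lower genes to the left.

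The 12 largest falls, chosen likewise, included the secreted epithelial proteins WFDC2, AZGP1, FCGBP and CXCL17. DHRS3, which reduces retinaldehyde, had 143, 34.4 and 2.19 FPKM in A and 261, 94.9 and 37.7 in B (-1.97 ± 0.50, adjusted p = 0.0429, limma). CXCL17, a chemokine of mucosal surfaces, had 359, 82.7 and 0.467 FPKM in A and 642, 308 and 12.2 in B (-1.96 ± 0.51, adjusted p = 0.0467, limma). Both fell most in PR2 (-0.87, -1.44 and -3.60 by line for DHRS3 and -0.84, -1.88 and -3.16 for CXCL17), and with either letter their levels were highest in parental cells and lowest in PR2. WFDC2, a secreted protein with WAP domains, had 331, 168 and 38.6 FPKM in A and 834, 609 and 202 in B (-1.85 ± 0.26, adjusted p = 0.0224, limma). AZGP1, the secreted zinc-alpha-2-glycoprotein, had 24.0, 2.17 and 15.8 FPKM in A and 99.8, 12.1 and 32.6 in B (-1.69, adjusted p = 0.0224, limma). FCGBP, a mucus protein, had 2.97, 1.53 and 0.529 FPKM in A and 12.3, 5.18 and 5.12 in B (-1.68, adjusted p = 0.0224, limma). FCGBP had no overlap between letters, and WFDC2 and AZGP1 were lower in A within each line. LOXL4, a lysyl oxidase of the matrix, had 14.3, 2.27 and 1.495 FPKM in A and 34.1, 11.1 and 13.8 in B (-1.88 ± 0.22, adjusted p = 0.0189, limma). ITGB3, the integrin beta-3 subunit, had 7.86, 0.975 and 0.192 FPKM in A and 27.9, 4.56 and 2.44 in B (-1.58, adjusted p = 0.0162, limma). SELENBP1, a selenium-binding protein, had 3.49, 17.5 and 2.07 FPKM in A and 13.4, 54.1 and 7.09 in B (-1.55, adjusted p = 0.0162, limma). By line, the differences were -1.20, -1.88 and -2.57 in LOXL4, -1.70, -1.49 and -1.53 in ITGB3 and -1.68, -1.58 and -1.40 in SELENBP1. TMEM61, a membrane protein, had 1.10, 2.07 and 0.622 FPKM in A and 6.85, 9.82 and 4.17 in B (-1.80, adjusted p = 0.0162, limma). RTN2, a reticulon that shapes the endoplasmic reticulum, had 3.80, 3.72 and 2.34 FPKM in A and 9.03, 11.9 and 18.0 in B (-1.67). The pseudogene CYP2B7P had 156, 0.960 and 0.352 in A and 291, 9.62 and 2.59 in B (-1.58), and the authors' counting could have split its reads with related cytochrome genes. TMEM61 and RTN2 had separate letter ranges, and HIST3H2A, described above, completes the 12.

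Of 19 lung lineage markers, 17 had a negative difference, with a median of -0.39 (-0.34, -0.51 and -0.16 by line). Of these markers, 1 was called lower (5.26%, against 3.90% of all rows) and 0 higher. The called gene, AGR2, a disulfide isomerase of mucus-secreting cells, had 429, 759.8 and 25.1 FPKM in A and 683, 1111 and 54.8 in B (-0.77 ± 0.15, adjusted p = 0.0265, limma). PR2 had the lowest values with either letter. SLC34A2, a phosphate transporter of alveolar type II cells, was not called (-0.11, -0.75 and -1.28 by line, adjusted p = 0.0708, limma), nor was NKX2-1, the lineage factor of lung (0.17, -0.64 and -0.36). CD74, the MHC class II invariant chain, had 208, 2.83 and 40.9 FPKM in A and 284, 9.88 and 67.7 in B and was called (-0.89 ± 0.23, adjusted p = 0.0433, limma). S100A9, a calcium-binding protein of squamous and myeloid cells, had 1093, 40.0 and 6.82 FPKM in A and 2344, 100.4 and 34.5 in B (-1.53, adjusted p = 0.0373, limma). Among the markers of other cell types, EGFL7 (endothelial) was called lower with 11.1, 6.25 and 9.69 FPKM in A and 23.6, 8.73 and 16.5 in B, and ACTA2 (fibroblast list, -0.55) was called lower too.

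The called genes of the nutrient sensing and lysosome lists were lower in A. Of 25 genes that respond to glucose or to FOXO factors in starvation, 19 had a negative difference, 2 were called lower in A (8%, against 3.90% of all rows) and 0 higher, with a median of -0.37 (-0.06, -0.47 and -0.63 by line). YPEL5, of the yippee family, had 13.0, 7.18 and 6.22 FPKM in A and 16.6, 18.7 and 23.4 in B (-1.12 ± 0.27, adjusted p = 0.0389, limma). BCL6, a transcriptional repressor, had 23.1, 10.8 and 3.93 FPKM in A and 29.4, 19.2 and 8.67 in B (-0.69, adjusted p = 0.0357, limma). YPEL5 was lower in every A library than in any B library, and BCL6 was lower within each line. TXNIP, the glucose-induced arrestin of the list, was not called, with 53.6, 68.3 and 74.3 FPKM in A and 40.7, 90.2 and 84.4 in B. PIK3IP1, an inhibitor of PI3 kinase, had 2.88, 4.93 and 2.78 FPKM in A and 3.89, 15.2 and 15.4 in B and missed the threshold (adjusted p = 0.0507, limma). Of 36 genes of lysosomes and autophagy, 4 were called lower (11.1%, against 3.90% of all rows) and 0 higher. Their median was -0.15 (-0.08, 0.02 and -0.35 by line), so PR1 did not share the direction. In 19 of them the sign was the same in all 3 lines, against 52.8% of all rows. CTSH, a lysosomal cysteine protease, had 112, 84.3 and 55.0 FPKM in A and 154, 164 and 149 in B (-0.94, adjusted p = 0.0406, limma). GABARAP, which coats autophagosomes, had 85.5, 92.3 and 102 FPKM in A and 139, 135 and 221 in B (-0.78), and its relative GABARAPL1 (-0.89) and the glycogen-degrading GAA (-0.86) were called as well. CTSH and GABARAP had separate letter ranges.

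Among the signalling lists, immediate early genes and MAPK output were called at shares near that of all rows. In the NF-kB list 1 of 24 members was called higher and 1 lower (8.33%). TGF-beta targets had 1 call (5.26% of 19), YAP and TEAD targets 1 (4.35% of 23) and NOTCH targets 1 (JAG1, 16.7% of 6), all higher in A. So few calls cannot rank these lists against the 11.6% of all rows. The interferon and WNT lists (26 and 7 members) had 0 calls in limma, with 6 and 2 members at an unadjusted p under 0.05. Of 26 immediate early genes, 3 were called higher (FOSL1, KLF2 and KLF6) and 0 lower (11.5% called, against 11.6% of all rows), and their list median of 0.42 came mostly from the parental line (0.61, 0.18 and 0.01). KLF2 had 10.3, 27.2 and 23.7 FPKM in A and 5.91, 9.07 and 7.42 in B (1.25, adjusted p = 0.0246, limma), with separate ranges. FOS and EGR1 were not called (0.75, 0.10 and 0.52 and 1.32, 0.50 and 0.01 by line). Of 20 genes of MAPK output, 2 were called higher (FOSL1 and HMGA2) and 1 lower (SPRY1, -0.79), 15.0% in all, and DUSP6 was not called (-0.51, -0.48 and 0.07). AXL, a receptor kinase, had 3.36, 53.8 and 106 FPKM in A and 0.748, 34.7 and 68.1 in B (0.86 ± 0.17, adjusted p = 0.0259, limma). Its levels in PR1 and PR2 were far above the parental ones with either letter. RET, the kinase of the fusion, had 13.1, 17.1 and 8.89 FPKM in A and 14.8, 15.9 and 8.95 in B (-0.03 ± 0.12, adjusted p = 0.907, limma), and CCDC6 (0.20 ± 0.15), EGFR (0.37 ± 0.11) and MET (0.27 ± 0.17) were not called either. RET values overlapped between letters and differed in sign by line (-0.16, 0.10 and -0.01). CRIP1 (0.35 ± 0.22), S100P (-0.48 ± 0.23), CYR61 (0.48 ± 0.30), HMGCS1 (0.47 ± 0.34) and the nuclear RNA MALAT1 (0.04 ± 0.22) were not called. For MALAT1 the sign turned under quantile normalization (-0.03), with equal library medians (-0.05) and after GC and length trends were removed (-0.11). CA9 was under the expression limit and was not tested. The cell cycle inhibitor CDKN1A was called higher in A together with the G1 kinase CDK6 (16.6, 4.66 and 21.8 FPKM in A and 10.3, 2.81 and 14.4 in B for CDKN1A).

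The list medians of 3 lists had opposite signs in the parental and PR2 lines. The amino acid stress list, genes that ATF4 activates when amino acids are short, had 0 of 30 members called in limma (1 at an unadjusted p under 0.05), a median of -0.01, and medians of -0.84, 0.17 and 0.68 by line. ASNS, asparagine synthetase, had 76.3, 101 and 189.7 FPKM in A and 292, 98.1 and 92.1 in B, with differences of -1.92, 0.05 and 1.03 by line. The cystine transporter SLC7A11 (-0.70, -0.08 and 1.75), the serine pathway enzyme PSAT1 (-1.03, 0.57 and 1.53) and the pseudokinase TRIB3 (-1.46, 0.35 and 1.07) had the same order. In these 4 genes the A library was the lower one in parental cells and the higher one in PR2. The mesenchymal list had medians of 0.81, 0.31 and -0.40, with 2 of 13 members (FN1 and CDH2) called higher and CAV1 at 1.98, 1.34 and -0.40 by line. The squamous list had medians of 0.47, 0.30 and -0.70, with 1 of 13 members called higher (TGM1), 1 lower (S100A9) and KLK7 at 2.05, 0.09 and -1.27. In the mesenchymal and the squamous list alike 15.4% of members were called, against 11.6% of all rows. Each line and letter is 1 library, so the difference between lines was not tested.

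**Figure D4:**
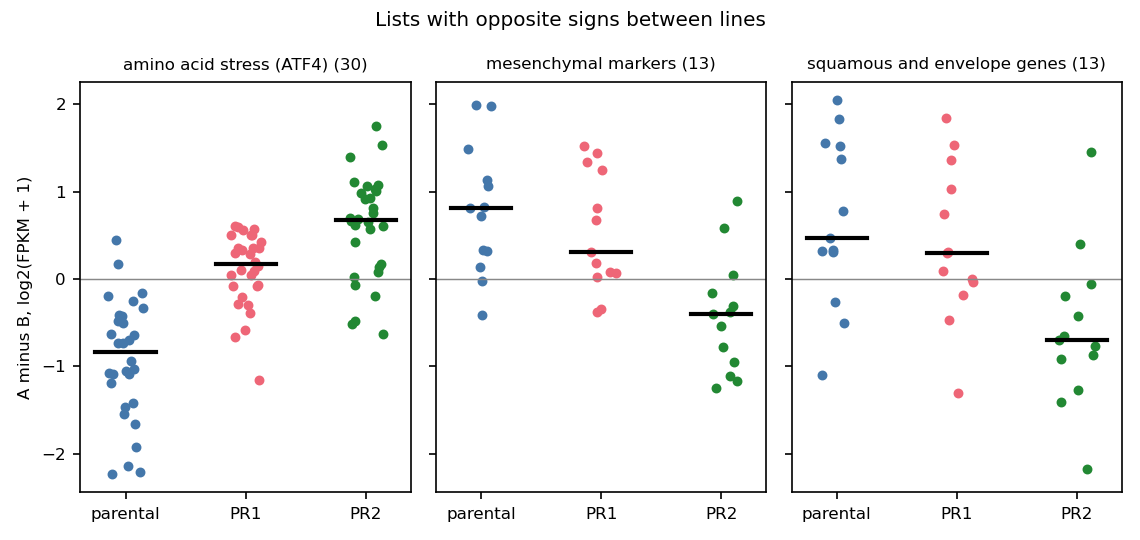
A minus B difference in log2(FPKM + 1) of each tested member (points, jittered sideways) of 3 lists in the parental, PR1 and PR2 lines, with the median as a bar. The bars of the amino acid stress list run from -0.84 in parental cells to 0.68 in PR2, and those of the other lists run from above 0 to below 0.

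The differences moved with the base composition of transcripts. GC content and length of the longest transcript were matched for 11244 rows (93.6%) and for 94.5% of called rows. Median GC content was 43.4% in rows called higher in A, 58.2% in rows called lower and 48.1% over all matched rows. Spearman's rho between A minus B and GC content was -0.27 for the mean of the lines, and -0.48, -0.0037 and -0.22 for parental, PR1 and PR2 (across rows, as a description). In the lowest GC decile 12.6% of rows were called higher in A and 0.444% lower, and in the highest decile 2.31% and 11.6%. With length, rho was 0.32 in parental cells, -0.15 in PR1 and 0.080 in PR2. GC and length trends were then removed from each of the 9 libraries, fitted on its deviation from the mean of all libraries. After this, 1091 rows were called, 586 of them higher in A. The list medians then were 0.76 for mitosis, 0.60 for DNA replication, 0.59 for the MYC and nucleolar list, 0.54 for heat shock, 0.37 for the proteasome and 0.41 for glycolysis.

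**Figure D5:**
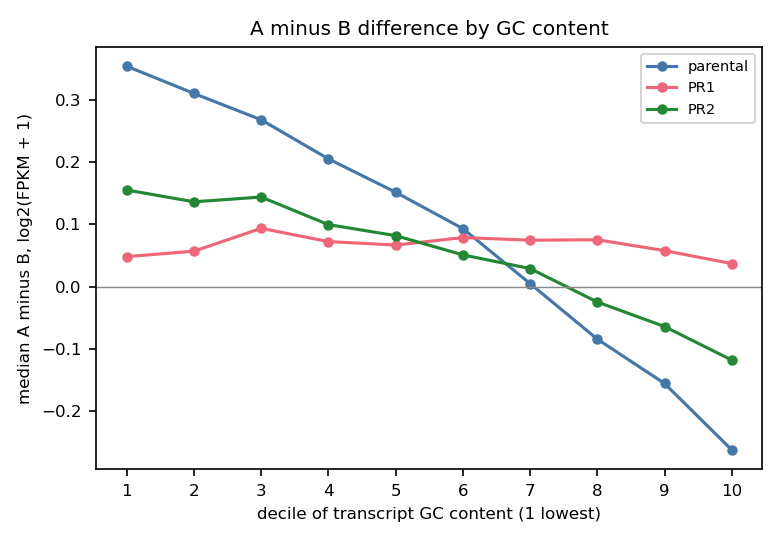
Median A minus B difference in log2(FPKM + 1) by decile of transcript GC content, from lowest to highest, with 1 line of points for each cell line. The parental points run from 0.35 in the lowest decile to -0.26 in the highest, PR2 runs less steeply, and PR1 stays between 0.04 and 0.09.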

How the data were processed

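RNA was sequenced in 9 libraries (3 lines, 3 letters each). Per the submitters' processing notes, TopHat2 2.0.14, Cufflinks 2.2.1 and Cuffdiff 2.2.1 were used with GRCh37 and hg19. Neither the annotation nor read numbers are given in the sources used. In the deposited table are the authors' FPKM values for 24069 rows, 5378 of them at 0 in every library. The unit is inferred from the tools and values. Among 12011 tested rows, 561 are combined loci whose values cannot be split. How reads shared with pseudogenes or near-identical copies were assigned is not given here, so values of HSPA8, NPM1, LDHA, RRM2 and histone genes are uncertain in that respect.

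Rows reaching 1 FPKM in 3 or more libraries were analysed as log2(FPKM + 1), which understates changes of low genes. limma 3.58.1 (R 4.3.3) fitted line and letter additively to all 9 libraries with an intensity trend. The line is the block because its libraries come from the same cells. Tests were two-sided, with Benjamini-Hochberg adjustment over all rows and calls at an adjusted p under 0.05. The script was tested on simulated data. Genes were named by size of difference (12 rises and 12 falls at a mean of 5 FPKM or more in the higher letter, one sign in all lines, without combined loci, antisense symbols and LOC, LINC, MIR, SNOR, RNU and RNA5 symbols), as the leading called members of the lists, and from a fixed set of 18 genes; other members were picked after their values were seen. The members and the 43 lists (1065 entries, 52 in combined loci) were chosen with earlier results of these data known. Depth is known only relative to parental A. Transcript GC content and length came from GENCODE v29, and promoters were matched to RefSeq by symbol or unique synonym. The GC and length correction (loess, span 0.3) was chosen after the data were seen.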

Additional observations from a re-analysis of the deposited data

Results flagged for a closer look

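The amino acid stress list had a median A minus B difference of -0.84 in the parental line and 0.68 in the PR2 line, on the log2(FPKM + 1) scale. ASNS, a member of that list, had a difference of -1.92 in the parental line and 1.03 in PR2. The squamous and envelope list had medians of 0.47 in the parental line and -0.70 in PR2, and the mesenchymal list had 0.81 and -0.40. They stand out because the same contrast of letters went opposite ways in these lines. Each line and letter is 1 library, so the difference between lines was not tested. The A minus B differences also moved with the GC content of transcripts, and the depth of the libraries differed between A and B. The part of either in these opposite directions was not tested.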

How the results depend on the processing

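The calls rested on few libraries. Leaving out 1 library at a time gave 0 to 1856 called rows between A and B (0 to 1241 higher, 0 to 615 lower, and 0 to 290 at 2-fold or more), 0 to 712 between A and C and 0 to 2 between C and B, and mitosis medians of 0.78 to 1.08. With 1 A or 1 B library left out, 2 pairs remain. Depth limits low rows, which FPKM alone cannot weigh.

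The A and B libraries as unpaired groups, with no replicate block for line, gave 0 called rows (1502 at an unadjusted p under 0.05, limma): 0 higher, 0 lower and 0 at 2-fold or more. No filter gave 0 too (4378 at an unadjusted p under 0.05, limma). Pseudocounts of 0.1 and 5 gave 355 and 47 rows at 2-fold or more. Quantile normalization gave 519 rows higher in A, equal medians 405 and removal of GC and length trends 586. Leaving out the PR1 line gave 1 called row (1 higher, 0 lower, 1 at 2-fold or more), the PR2 line 40 (16, 24 and 40) and the parental line 1189 (283 at 2-fold or more). A against C gave 1 call with a pseudocount of 0.1, 6 without the parental line and 31 without PR2, and C against B gave 3, 1 and 1 without the parental, PR1 and PR2 lines. The causes were not tested. The heat shock median was 0.74 without the parental line.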

Other observations

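Combined loci and small nucleolar RNAs were left out of the largest rises and falls. The rows named here were chosen after their values were seen, except SNORD17, which the rule picked from a list. The combined locus of SIDT2 and TAGLN, the latter an actin-binding protein of contractile cells, had 283, 124 and 476 FPKM in A and 35.5, 21.5 and 177 in B (2.29 ± 0.33, adjusted p = 0.0224, limma), and its value cannot be split between the genes. Of 35 small nucleolar RNA rows tested, 2 were called higher in A and 1 lower, with a median of 0.22. Over all rows tested, 7.66% were called higher and 3.90% lower. SNORA44 was listed at 672, 139 and 143 FPKM in A and at 0 in every B library. SNORD15B was listed at 29.5, 0 and 0 FPKM in A and 73.7, 74.9 and 145 in B. SNORD17 had 6.24, 12.2 and 7.47 FPKM in A and 1.01, 2.10 and 3.15 in B. The called rows of this class were at most 237 bases long.

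DKC1, a nucleolar gene with small nucleolar RNAs in its introns, was not called and had 228, 119 and 107 FPKM in A and 67.3, 63.7 and 398 in B, the PR2 B value lying far above the others. NUPR1, a stress-induced gene of the amino acid stress list, was lower in A in every line (-2.21, -1.16 and -0.63), unlike most of that list (adjusted p = 0.0713, limma). Of 10 nuclear-retained long RNAs, 1 was called lower in A (10%, against 3.90% of all rows) and 9 had a negative difference, with a median of -0.24.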
